A study of Mus musculus with 24 samples.

Results

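The 10 genes Lpl, Gpihbp1, Angptl4, Cd36, Slc27a1, Fabp4, Acsl1, Agpat2, Dgat1 and Dgat2 carry fatty acids from the blood into the adipocyte and build them into triglyceride. They were selected by gene symbol from the 56895 entries measured in every library, and all 10 passed the filter on low values in every comparison. RNA-seq of polyadenylated transcripts was performed on retroperitoneal white adipose tissue of 24 C57BL/6J offspring (the strain as labelled, with parents given as C57BL/6JRJ in the study's methods), with 3 mice in each of 8 groups. Mothers received a diet with vitamin D3 at 1.0 IU/g (CTRL) or at 0.0 IU/g (VDD) for at least 8 weeks before mating and during gestation. After giving birth every mother was fed the control diet. At 6 weeks of age the male and female offspring were put for 8 weeks on a low-fat diet (LF, AIN-93M) or on a high-fat diet with 45% of its energy as fat (HF), and all were fasted overnight before the tissue was taken. The groups are CTRL LF, CTRL HF, VDD LF and VDD HF in each sex, no group carries a modified allele, and the sources used here do not give each mouse's litter.

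Lipoprotein lipase, made by Lpl, frees fatty acids from circulating triglyceride on the capillary wall, where the protein of Gpihbp1 holds it and that of Angptl4 inactivates it. Fatty acids then enter the adipocyte with the help of the scavenger receptor Cd36 and the transport protein Slc27a1 (FATP1), and Fabp4 is the abundant fatty acid carrier of the adipocyte cytosol. Acsl1 is an acyl-CoA synthetase that activates fatty acids, Agpat2 adds the acyl group that turns lysophosphatidic acid into phosphatidic acid, and the unrelated enzymes Dgat1 and Dgat2 each complete the triglyceride from diacylglycerol.

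The libraries held 13346779 to 18484346 reads on genes. Markers of adipocytes were abundant in every library, with a summed 490830 to 1116323 normalized reads over 12 genes. Other tissues were visible in some libraries. The 15 skeletal muscle genes summed to 57282 to 1407629 reads in 8 libraries and to 449 to 26903 in the others, with the highest sum in VDD LF male 2310 (the number after a group is the mouse number of the tables). The 10 brown adipocyte genes summed to 1034 to 41518 reads. The kidney list reached 10226 reads in VDD LF female 2303 but at most 775 elsewhere, and the adrenal list reached 9879 and 32566 in 2 CTRL HF females and 18876 in VDD HF female 2121, against at most 1790 elsewhere. Summed reads ran from 7097 to 52842 for the macrophage list, 637 to 29616 for lymphocytes, 9197 to 23366 for endothelium, 290 to 15406 for mesothelium, 11.5 to 4082 for mammary epithelium and 10022 to 61905 for blood. The names of 6 libraries hold the word renal, 4 of LF and 2 of HF mice and 0 of HF females, and the meaning of the word is not given in the labels or methods. In whole tissue, fewer cells of a type and less RNA per cell cannot be told apart.

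In the GENCODE M21 annotation of mm10 all 10 are protein-coding genes. Lpl lies at chr8:68880491-68907448, Gpihbp1 at chr15:75596628-75599481, Slc27a1 at chr8:71568882-71587302 and Acsl1 at chr8:46471037-46536051, on the plus strand. On the minus strand lie Angptl4 at chr17:33773750-33781830, Cd36 at chr5:17781690-17888801, Fabp4 at chr3:10204088-10208576, Agpat2 at chr2:26593057-26604417, Dgat1 at chr15:76502015-76511953 and Dgat2 at chr7:99153658-99182719.

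All levels below are normalized reads on 1 scale for the 24 libraries. Compared per kb of the principal transcript, Fabp4 had the highest level, with a median of 289408 reads per kb, and stood above the next gene in 24 of 24 libraries. Lpl followed with a median of 34350 and Cd36 with 23643. The remaining genes lay lower, with medians of 8169 for Slc27a1, 6280 for Acsl1, 3707 for Dgat2, 3340 for Angptl4, 3030 for Gpihbp1, 2724 for Agpat2 and 2518 for Dgat1. Neighbours in this lower part of the order were not separated in every library. Slc27a1 exceeded Acsl1 in 14 libraries and Agpat2 exceeded Dgat1 in 11.

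Upstream sequences of Slc27a1 and Acsl1 are shown because these genes moved most with the offspring diet, and that of Agpat2 because it belongs to the same route and did not pass the test. Each runs over the 250 bases before a transcription start given by RefSeq (GRCm38.p6), which lies 11 bases before the annotated start of the gene for Slc27a1 and at it for the others. The windows are chr8:71568621-71568870 on the plus strand for Slc27a1, chr8:46470787-46471036 on the plus strand for Acsl1 and chr2:26604418-26604667 on the minus strand for Agpat2. Capitals mark the GC box GGGCGG on either strand.
Slc27a1: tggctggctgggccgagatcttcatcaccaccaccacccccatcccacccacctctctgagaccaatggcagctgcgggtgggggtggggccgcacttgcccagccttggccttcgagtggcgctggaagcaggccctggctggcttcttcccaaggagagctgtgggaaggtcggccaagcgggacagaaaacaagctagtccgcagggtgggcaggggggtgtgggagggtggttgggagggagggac
Acsl1: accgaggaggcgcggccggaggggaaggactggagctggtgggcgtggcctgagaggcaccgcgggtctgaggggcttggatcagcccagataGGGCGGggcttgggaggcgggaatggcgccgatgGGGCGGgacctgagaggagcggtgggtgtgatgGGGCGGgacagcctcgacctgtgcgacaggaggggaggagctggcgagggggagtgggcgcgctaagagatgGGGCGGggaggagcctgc
Agpat2: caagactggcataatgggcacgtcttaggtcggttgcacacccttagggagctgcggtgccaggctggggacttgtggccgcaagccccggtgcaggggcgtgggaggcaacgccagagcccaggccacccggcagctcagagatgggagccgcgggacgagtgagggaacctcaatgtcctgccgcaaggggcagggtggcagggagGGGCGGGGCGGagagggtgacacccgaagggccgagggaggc
Slc27a1 has 2 further windows in RefSeq and Acsl1 has 1, which start within the gene and are not printed. They held 1 and 3 GC boxes for Slc27a1 and 0 for Acsl1. The Acsl1 window shown held 4 GC boxes, that of Agpat2 held 2 that share bases, and that of Slc27a1 shown held 0. Of 32851 mouse promoter windows of the same length, 32.7% held at least 1. The Cd36 window, which lies within the annotated gene and is not printed, held 2 GC boxes and 1 nuclear receptor motif AGGTCA on the reverse strand. This motif and the E-box CACGTG were in 0 of these 3 windows, against 14.0% and 6.02% of all windows. The third Slc27a1 window held 1 E-box. These matches describe letters only, and only 4 of the 10 genes (Cd36, Slc27a1, Acsl1 and Agpat2) had windows to search.

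The effect of the offspring diet was examined over all 24 libraries, averaging over sex and maternal diet. Slc27a1, Acsl1 and Dgat1 fell under the HF diet, whereas the other 7 genes did not pass the test. A gene was called when its Benjamini-Hochberg adjusted p was under 0.01 and its fold change above 1.5 or below 0.66. By this rule 3 of the 10 genes were called lower and 0 higher, where 9.44% of 18399 genes tested were called in either direction. The median log2 fold change of the 10 genes was -0.19, against 0.014 for all genes tested.

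Slc27a1 was read 19726 to 37417 times in the 12 LF libraries, with a median of 27985, and 5816 to 27562 times in the 12 HF libraries, with a median of 12426. In CTRL males the LF libraries held 25295, 28707 and 25313 reads and the HF libraries 17586, 14605 and 12168. In VDD males the LF libraries held 37417, 35826 and 19726 reads and the HF libraries 12188, 10900 and 12664. The HF libraries lay below the LF libraries in the males of either maternal group. In CTRL females the LF libraries held 28253, 34721 and 28906 reads and the HF libraries 12867, 5816 and 8902. In VDD females the LF libraries held 27716, 24967 and 24508 reads and the HF libraries 27562, 21159 and 8456. Among these 4 comparisons the diets overlapped in VDD females alone, where 1 HF library lay far below the other two. Over the 24 libraries the log2 fold change was -1.14 (SE 0.17, adjusted p = 1.24e-04, limma), a ratio of 0.453.

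Acsl1 followed the same order of diets. It was read 41466, 46906 and 36640 times in CTRL LF males and 13141, 17391 and 12457 times in CTRL HF males. VDD LF males held 53206, 51362 and 21669 reads and VDD HF males 14508, 23704 and 16938. The LF value of 21669 that overlaps the HF range in VDD males is that of library 2310, which held 1407629 skeletal muscle reads. With that library the difference in VDD males was -1.12 (SE 0.43, adjusted p = 0.168, limma) and without it -1.55 (SE 0.25, adjusted p = 0.0188, limma). Leaving out any other single library of this comparison gave -1.31 to -0.89, with adjusted p of 0.268 to 0.383 (limma). The part of muscle in the value of library 2310 was not tested. CTRL LF females held 37750, 44547 and 26357 reads and CTRL HF females 17151, 14950 and 11817. VDD LF females held 48087, 34346 and 23895 reads and VDD HF females 25054, 33167 and 20921. The diets were thus apart in CTRL mice of either sex and overlapped in VDD mice. The log2 fold change over the 24 libraries was -1.09 (SE 0.17, adjusted p = 1.42e-04, limma).

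Dgat1 was lower under HF by -0.74 on the log2 scale (SE 0.15, adjusted p = 0.00155, limma), a ratio of 0.600. CTRL LF males held 5700, 5468 and 4216 reads and CTRL HF males 3682, 3299 and 2916. VDD LF males held 11194, 8396 and 3622 reads and VDD HF males 3391, 3459 and 2788. Within each maternal group the HF libraries of males were below the LF libraries. CTRL LF females held 6127, 7144 and 5565 reads and CTRL HF females 2994, 3655 and 3100. VDD LF females held 10217, 6111 and 4843 reads and VDD HF females 6897, 5680 and 4665. Dgat1 was thereby also lower in HF than in LF libraries of CTRL females without overlap, while in VDD females the diets overlapped.

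**Figure D1:**
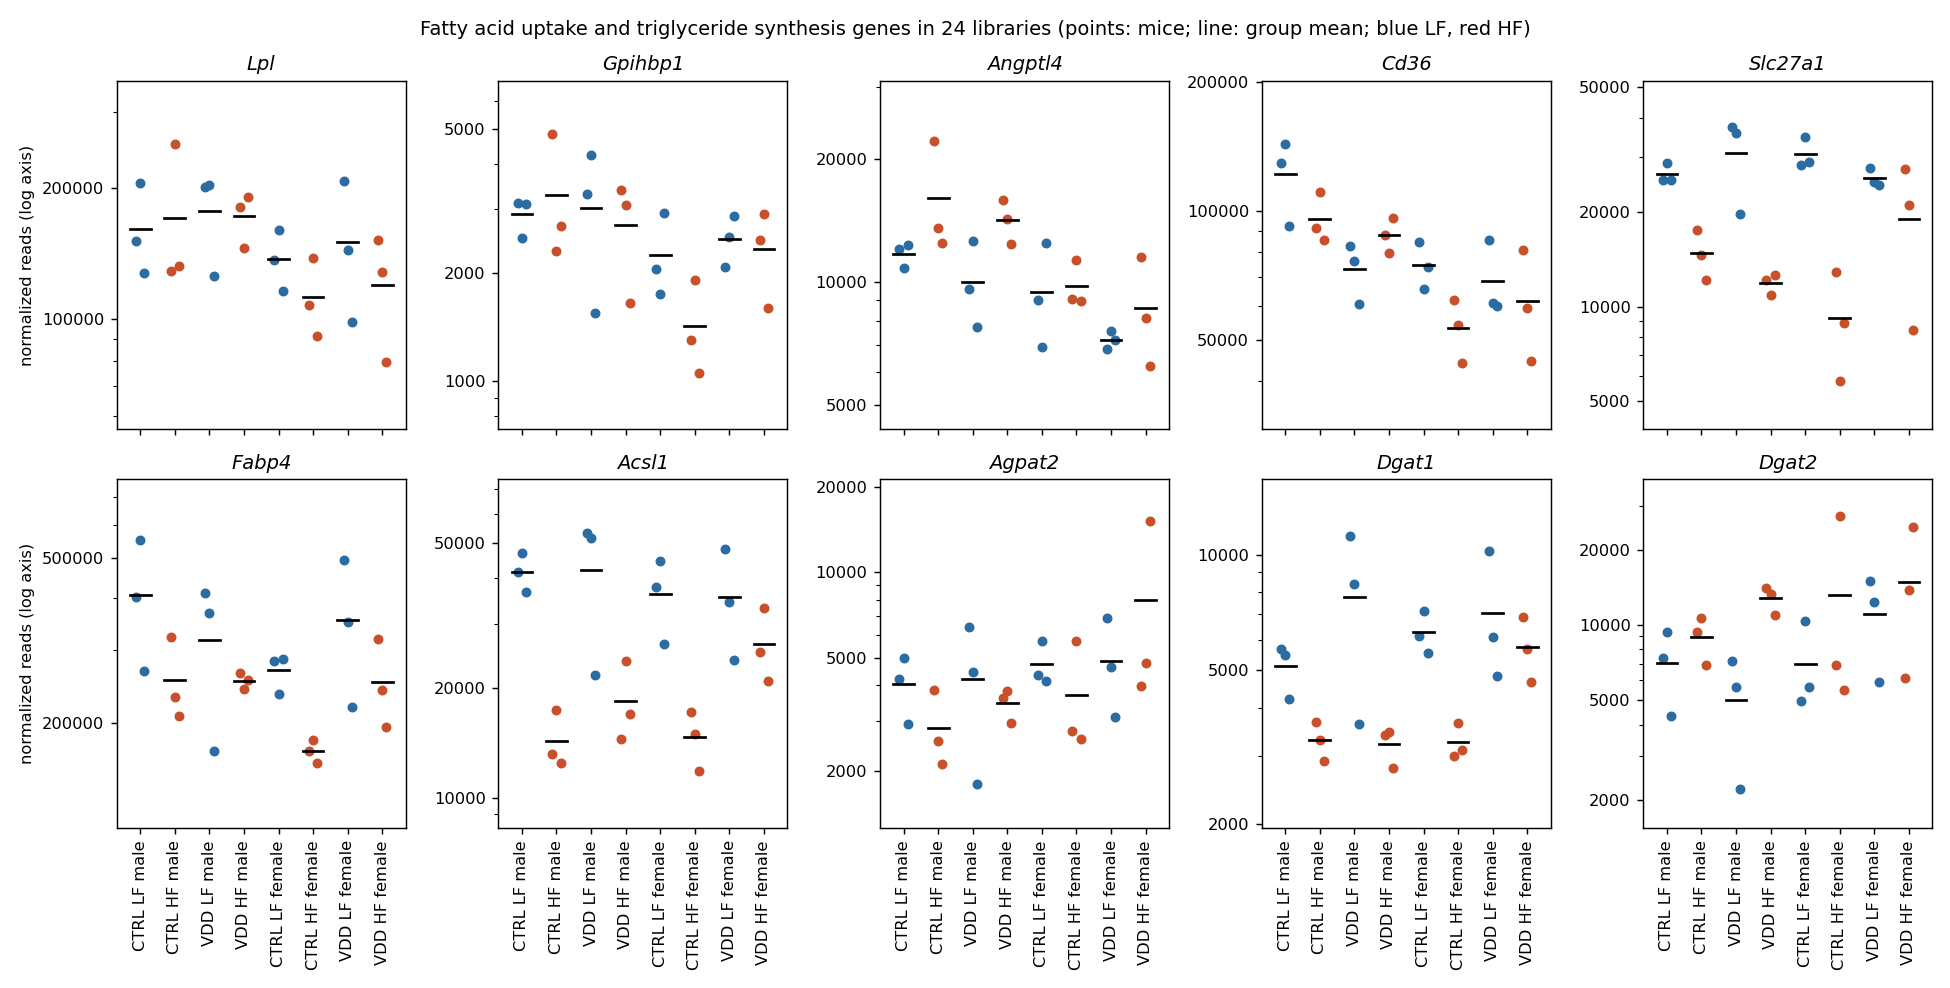
Normalized reads (log axis) of the 10 genes in each of 24 libraries, by group on the horizontal axis, with points for mice, black lines for group means, blue for LF and red for HF. Slc27a1 and Acsl1 show the HF libraries low in CTRL mice of either sex, and VDD HF females spread upward to 27562 reads of Slc27a1.

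Slc27a1 and Acsl1 were called under each of the 35 alternatives run, with log2 fold changes from -1.25 to -0.97 and from -1.26 to -0.88 and adjusted p up to 0.00866 and 0.00446 (limma). Dgat1 was called without any single library, with values from -0.86 to -0.65. Its call was lost with a brown adipocyte score in the fit (-0.69, adjusted p = 0.0171, limma), with an adipocyte score (-0.56, adjusted p = 0.00288, limma, the fold then being too small), without 6 libraries whose names hold the word renal (-0.74, adjusted p = 0.0206, limma) and without the 4 libraries rich in kidney or adrenal reads (-0.58, adjusted p = 0.0284, limma). Across the alternatives its adjusted p ran from 3.82e-05 to 0.0284 (limma).

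The brown adipocyte list was also lower under HF in CTRL mice of either sex and in VDD males, but not in VDD females. Its summed reads were 2410 to 4401 in CTRL LF males against 1099 to 2100 in CTRL HF males, 5718 to 10330 in VDD LF males against 1798 to 4167 in VDD HF males, and 2537 to 12811 in CTRL LF females against 1034 to 1639 in CTRL HF females. In VDD females the sums were 3048 to 13349 under LF, whereas under HF they reached 26644 and 41518 in mice 2083 and 2121 and 4057 in mouse 2081. Ucp1, the uncoupling protein of brown fat, gave 25479 of the reads in mouse 2121 and 0.829 to 5278 in the other libraries. Over the 24 libraries 9.44% of all genes tested were called by offspring diet in either direction. Of the 10 brown adipocyte genes, 0 were called higher and 3 lower under HF, and of the 12 adipocyte genes 0 were called higher and 2 lower. Of the 10 macrophage genes 1 was called higher and 0 lower, with a median log2 fold change of 0.73, and their summed reads ran from 7097 to 32701 under LF (median 11749) and from 8274 to 52842 under HF (median 22788). The part of macrophages in the fall of Slc27a1, Acsl1 and Dgat1 was not tested. With the brown adipocyte score in the fit Slc27a1 was -1.15 and Acsl1 -0.88 and these were called, whereas Dgat1 lost its call, as given above. Without mice 2083 and 2121 Slc27a1 was -0.97, Acsl1 -1.10 and Dgat1 -0.67, each of them called. Beyond these values the part of brown adipocytes in the diet differences was not tested.

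**Figure D2:**
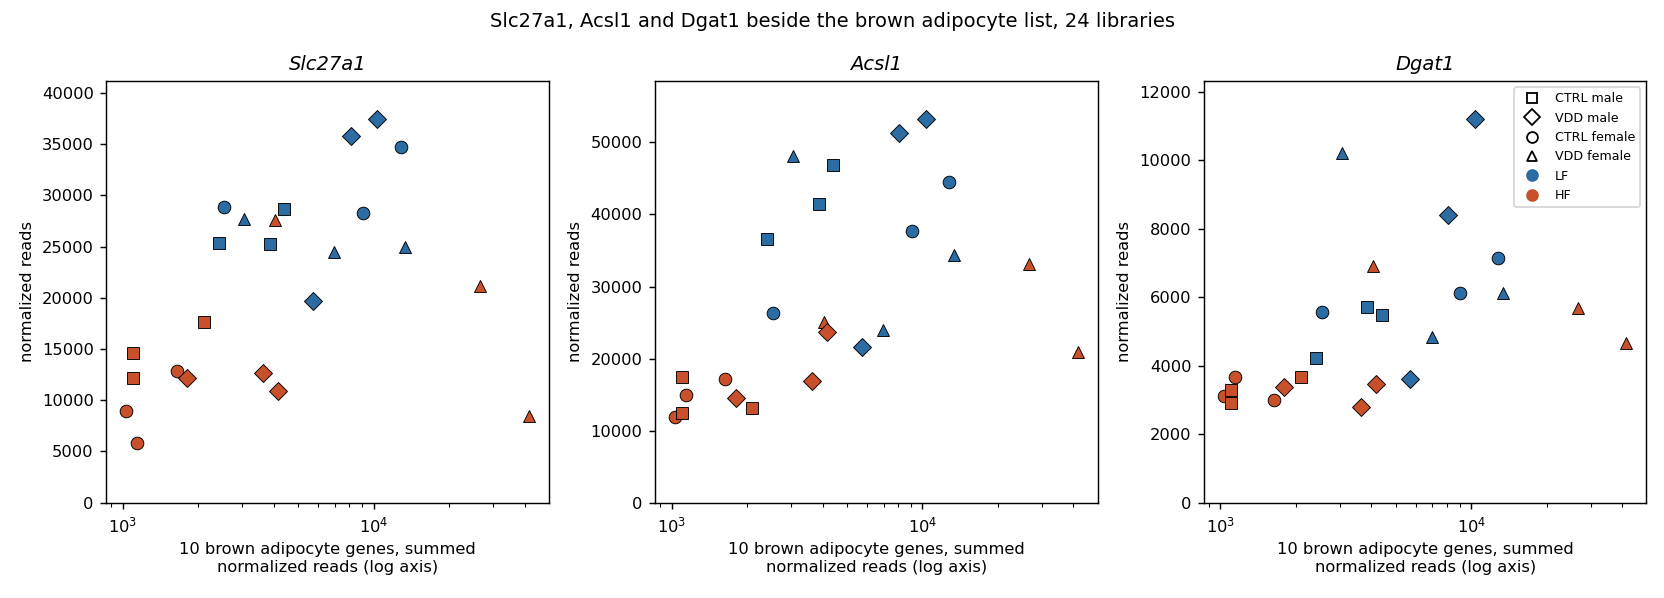
Normalized reads of Slc27a1, Acsl1 and Dgat1 (vertical axes, from 0) against the summed reads of 10 brown adipocyte genes (log axis) in 24 libraries, with shape for sex and maternal diet and color for offspring diet. HF libraries of CTRL mice lie at low values on both axes, and the VDD HF females with 26644 and 41518 brown adipocyte reads lie at the right edge.

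Dgat2, the other enzyme of the last step, did not follow Dgat1. Its log2 fold change under HF was 0.71 (SE 0.29, 95% interval 0.11 to 1.30, adjusted p = 0.0705, limma), which did not pass the test. CTRL LF males held 7403, 9390 and 4314 reads and CTRL HF males 9369, 10641 and 6903. VDD LF males held 7187, 5658 and 2214 reads and VDD HF males 14047, 13301 and 10995. The diets thus overlapped in CTRL males, and in VDD males all HF libraries lay above all LF libraries. CTRL LF females held 4964, 10380 and 5672 reads and CTRL HF females 6918, 27231 and 5517. VDD LF females held 14991, 12298 and 5932 reads and VDD HF females 6146, 13832 and 24515. In females the highest HF values came from mice 2291 (CTRL) and 2121 (VDD), and without them the differences of 0.59 and 0.31 turned to -0.14 and -0.15. Without VDD LF female 2312 the latter was -0.088, and without VDD LF male 2310 the difference in VDD males was 0.99 in place of 1.5.

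The ratio of Dgat2 to Dgat1 reads within a library does not depend on scaling. It was chosen after the values were seen and is given without a test. It was 0.611 to 2.01 in LF libraries (median 1.12) and 0.891 to 7.45 in HF libraries (median 2.88), a mean difference of 1.44 in log2 ratio. In VDD males it was 0.642, 0.674 and 0.611 under LF and 4.14, 3.85 and 3.94 under HF, with little spread within either group. In CTRL males it was 1.02 to 1.72 under LF and 2.37 to 3.23 under HF, and in CTRL females 0.810 to 1.45 and 1.78 to 7.45, again without overlap. In VDD females the LF range of 1.22 to 2.01 lay inside the HF range of 0.891 to 5.25. Leaving out any 1 library moved the difference between 1.28 and 1.61, and leaving out VDD HF females 2083 and 2121 gave 1.11.

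**Figure D3:**
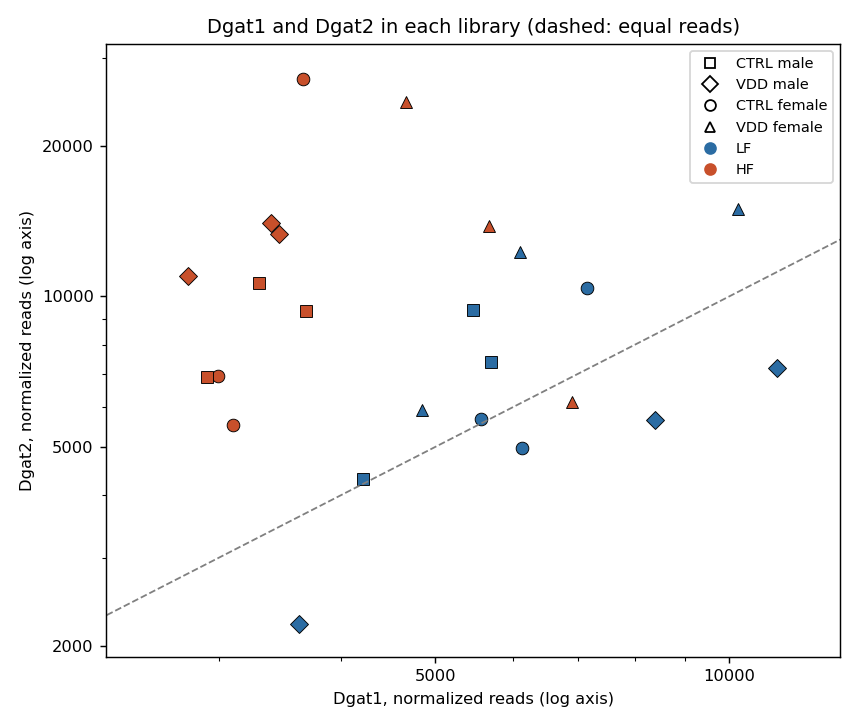
Normalized reads of Dgat2 against Dgat1 in each of 24 libraries on log axes, with the dashed line at equal reads, shape for sex and maternal diet and color for offspring diet. The VDD LF males lie below the line at ratios of 0.611 to 0.674, and the VDD HF males lie above it at 3.85 to 4.14.

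Agpat2 acts earlier in the route than the Dgat enzymes. Its reads ran from 1798 to 6914 under LF and from 2109 to 15204 under HF, with the highest value in VDD HF female 2121. The log2 fold change was -0.14 (SE 0.24, 95% interval -0.64 to 0.35, adjusted p = 0.701, limma). Its sign turned with the brown adipocyte or the adipocyte score in the fit.

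Among the genes of uptake, Cd36 and Fabp4 were not called. Cd36 was read 59910 to 143842 times under LF and 44117 to 110518 times under HF, a log2 fold change of -0.18 (SE 0.15, adjusted p = 0.371, limma). Fabp4 was read 171114 to 551011 times under LF and 160134 to 322998 times under HF, with medians of 317593 and 235369. Its difference was -0.49 (SE 0.24, 95% interval -0.99 to 0.016, adjusted p = 0.138, limma). In CTRL females Fabp4 held 282727, 235696 and 285244 reads under LF and 171317, 182496 and 160134 under HF, and the diets did not overlap.

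The genes of capillary lipolysis were not called either. Lpl was read 98567 to 208444 times under LF and 79733 to 252521 times under HF, a log2 fold change of -0.15 (SE 0.20, adjusted p = 0.637, limma). Gpihbp1 was read 1540 to 4235 times under LF and 1051 to 4853 times under HF, with a change of -0.20 (SE 0.18, adjusted p = 0.445, limma). Angptl4 was read 6828 to 12568 times under LF and 6226 to 22109 times under HF. Its change of 0.31 (SE 0.13, 95% interval 0.042 to 0.57, adjusted p = 0.0755, limma) did not pass the test. In CTRL males Angptl4 held 12037, 10790 and 12278 reads under LF and 22109, 13499 and 12428 under HF, where mouse 2127 stood above the other libraries of the series.

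**Figure D4:**
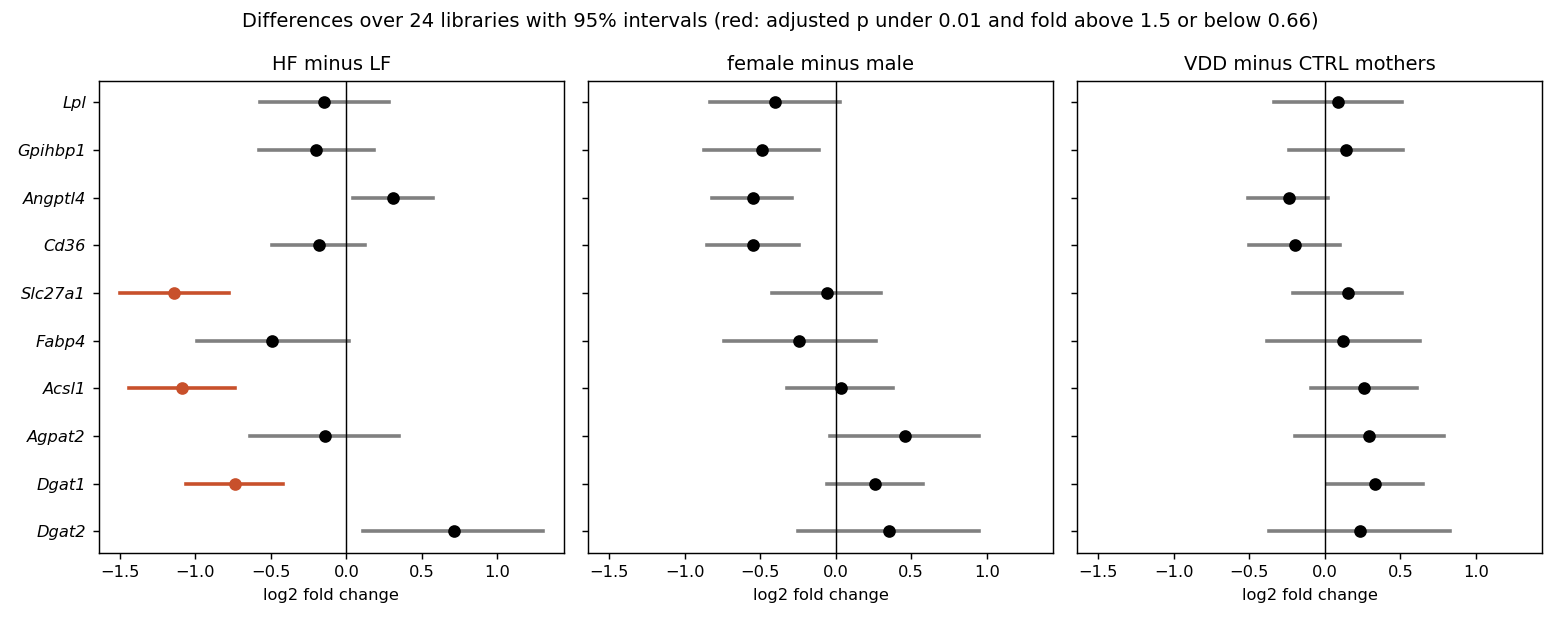
Log2 fold changes of the 10 genes over 24 libraries for HF minus LF, female minus male and VDD minus CTRL mothers, with points for estimates, bars for 95% intervals and red for called genes. Slc27a1 (-1.14), Acsl1 (-1.09) and Dgat1 (-0.74) are red in the diet panel and no gene is red in the other panels.

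The diets were then compared within each sex and maternal group, 3 against 3 libraries. Of the 10 genes 0 were called in each of these comparisons (limma), which share their libraries with the averaged contrast. The called share was 0.0578% of genes tested in CTRL males, 0.0752% in VDD males, 0% in CTRL females and 0% in VDD females. At an unadjusted p under 0.05 stood 3 of the 10 genes in CTRL males, 4 in VDD males, 4 in CTRL females and 0 in VDD females. Of all genes tested 2924, 4138, 4762 and 804 did, or 18.8%, 25.9%, 28.8% and 5.05%. With limma-voom 0 of the 10 were called in each, beside 9, 0, 0 and 0 genes in all.

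In CTRL females Slc27a1 changed by -1.83 (SE 0.29, adjusted p = 0.0252, limma), Acsl1 by -1.31 (SE 0.27, adjusted p = 0.0368, limma) and Dgat1 by -0.97 (SE 0.15, adjusted p = 0.0242, limma). Cd36, Fabp4, Slc27a1, Acsl1 and Dgat1 had all HF libraries below all LF libraries, 5 of 10 genes where 18.2% of genes tested had that pattern, and 0 of 10 had the opposite one against 16.9%. In CTRL males Acsl1 changed by -1.56 (SE 0.28, adjusted p = 0.0335, limma), Slc27a1 by -0.86 (SE 0.26) and Dgat1 by -0.64 (SE 0.20). These 3 of the 10 genes lay lower without overlap where 11.7% of genes did, and Angptl4, 1 of the 10, lay higher where 13.0% did. In VDD males Slc27a1 changed by -1.33 (SE 0.30, adjusted p = 0.0595, limma), Dgat1 by -1.13 (SE 0.42), Acsl1 by -1.12 (SE 0.43) and Dgat2 by 1.5 (SE 0.44). There Slc27a1 and Dgat1 lay lower without overlap, 2 of 10 genes against 16.5% of all genes, and Dgat2 lay higher, 1 of 10 against 17.0%.

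VDD LF male 2310 weighed on the comparison in VDD males. It held the most skeletal muscle reads (1407629), and VDD HF males 2298 and 2307 held 310700 and 473814. The part of muscle in this comparison was not tested. Without library 2310 Slc27a1 (-1.63, adjusted p = 0.00715, limma) and Dgat1 (-1.61, adjusted p = 0.00880, limma) were called, and 251 genes in all in place of 12. Slc27a1 was also called there when the 12 male libraries were fitted together (-1.32, adjusted p = 0.00907, limma). In VDD females the changes were -0.59 for Slc27a1, -0.39 for Acsl1, -0.24 for Dgat1 and 0.31 for Dgat2, with SE of 0.47, 0.39, 0.32 and 0.56. There 0 of 10 genes lay higher and 0 lower without overlap, where 5.55% and 6.06% of genes did.

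**Figure D5:**
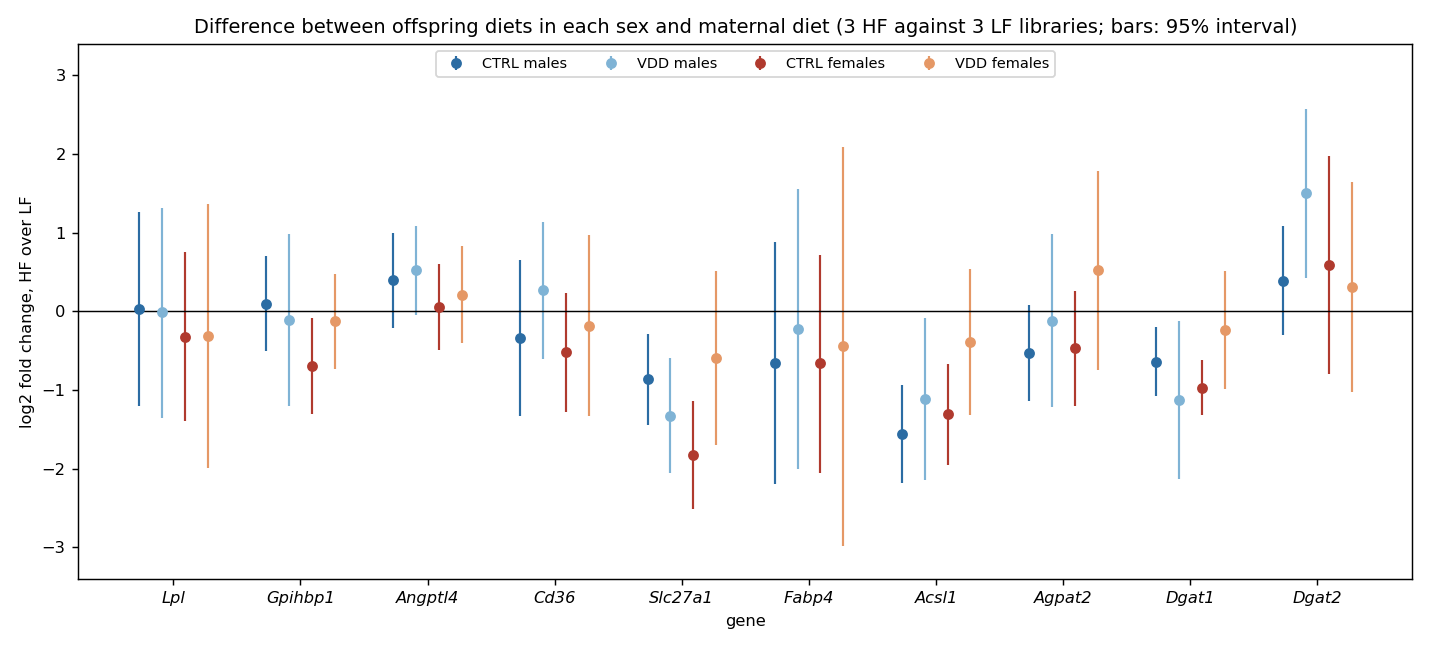
Log2 fold change of HF over LF (vertical axis) for the 10 genes in CTRL males, VDD males, CTRL females and VDD females, each from 3 HF and 3 LF libraries, with bars for 95% intervals. The estimates for Slc27a1, Acsl1 and Dgat1 are below 0 in the 4 comparisons and nearest to 0 in VDD females.

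Whether the diet difference itself depended on the mother's diet or on sex was tested by interaction terms over the 24 libraries. In females the difference between diets was higher in VDD than in CTRL mice by 1.21 for Slc27a1 (SE 0.49, 95% interval 0.19 to 2.23, adjusted p = 0.748, limma), by 0.90 for Acsl1 (SE 0.47, adjusted p = 0.787, limma) and by 0.71 for Dgat1 (SE 0.43, adjusted p = 0.798, limma). In males the same terms were -0.47 for Slc27a1, 0.43 for Acsl1, -0.50 for Dgat1 and 1.10 for Dgat2, with adjusted p of 1.00 each (limma). The called share was 0% for either term, with 0 genes called with limma-voom. At an unadjusted p under 0.05 stood 1 of the 10 in females and 0 in males, beside 1171 (6.36%) and 755 (4.10%) of all genes tested. For the difference of the diet effect between the sexes 0.0272% of genes were called and 0 of the 10 (limma), with values of -0.11 for Slc27a1, 0.49 for Acsl1, 0.28 for Dgat1 and -0.49 for Dgat2. For the difference of the maternal effect between the sexes 0% were called and 0 of the 10, and 0 with limma-voom. At an unadjusted p under 0.05 stood 0 of the 10 and 1219 (6.63%) of all genes tested. After adjustment the diet differences of VDD and CTRL females are not shown to differ.

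Maternal vitamin D deficiency was compared with the control diet over the 24 libraries. Of the 10 genes 0 were called (limma), where 0.103% of genes were. The changes ran from -0.24 for Angptl4 (SE 0.13, adjusted p = 0.256, limma) to 0.33 for Dgat1 (SE 0.15, 95% interval 0.013 to 0.65, adjusted p = 0.199, limma). Dgat1 was the only 1 of the 10 at an unadjusted p under 0.05 (limma), where 22.9% of all genes were, and 0 were called with limma-voom. Slc27a1 changed by 0.15 (95% interval -0.21 to 0.51), Acsl1 by 0.26 (-0.089 to 0.61) and Dgat2 by 0.23 (-0.37 to 0.83). Lpl (0.084), Gpihbp1 (0.14), Cd36 (-0.20), Fabp4 (0.12) and Agpat2 (0.29) had intervals that include 0.

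Within each sex and offspring diet, VDD was compared with CTRL in 3 against 3 libraries, and 0 of the 10 genes and 0% of all genes were called in any of the 4 comparisons (limma and limma-voom). At an unadjusted p under 0.05 stood 3 of the 10 in HF females and 0 in the others, beside 2752 genes in all for HF females, 850 for HF males, 1933 for LF females and 1048 for LF males. In HF females Fabp4, Acsl1 and Dgat1 were higher in VDD mice without overlap, 3 of 10 genes where 22.9% of genes did not overlap in either direction. Dgat1 differed by 0.82 (SE 0.19, adjusted p = 0.158, limma), Acsl1 by 0.85 (SE 0.28) and Fabp4 by 0.54 (SE 0.73). Dgat2 of HF males was higher in VDD mice without overlap, by 0.51 (SE 0.22), 1 of 10 genes where 10.3% of all genes did not overlap. Slc27a1 of LF females was lower by -0.25 (SE 0.24), 1 of 10 where 18.2% did not overlap. Cd36 of LF males was lower by -0.71 (SE 0.46), 1 of 10 where 13.4% did not overlap. In none of these comparisons was the members' share above that of all genes.

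Sex was compared over the 24 libraries, averaging over the diets. Of the 10 genes 0 were called (limma and limma-voom), where 7.27% of genes were. Angptl4 was lower in females by -0.55 on the log2 scale (SE 0.13, adjusted p = 0.00455, limma), a ratio of 0.682 that did not reach the fold required. It was read 7766 to 22109 times in males (median 12395) and 6226 to 12420 times in females (median 8557). Cd36 was lower in females by -0.55 (SE 0.15, adjusted p = 0.0120, limma), with 60653 to 143842 reads in males and 44117 to 85513 in females. Gpihbp1 differed by -0.49 (SE 0.18, adjusted p = 0.0649, limma) and Lpl by -0.40 (SE 0.20, adjusted p = 0.179, limma). At an unadjusted p under 0.05 stood Angptl4, Cd36 and Gpihbp1, 3 of the 10 where 33.0% of all genes did. Angptl4 was called without CTRL LF female 2335 (-0.61, adjusted p = 0.00224, limma) and without VDD HF female 2081 (-0.61, adjusted p = 0.00145, limma), and its adjusted p over the alternatives ran from 0.00145 to 0.0865 (limma). Cd36 was called without VDD HF female 2081 (-0.60, adjusted p = 0.00494, limma), and its adjusted p over the alternatives ran from 0.00346 to 0.148 (limma). Slc27a1 (-0.058), Acsl1 (0.033), Dgat1 (0.26), Dgat2 (0.35), Agpat2 (0.46) and Fabp4 (-0.24) had intervals that include 0.

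Genes of several lists of other cell types were called by sex, where 7.27% of all genes tested were called. Of the adrenal genes tested 3 of 3 were called higher in females (median log2 fold change 4.37), of the mammary epithelium genes 2 of 4 (3.30), of the mesothelium genes 2 of 8 (1.14), of the kidney genes 1 of 3 (1.62), of the brown adipocyte genes 1 of 10 (0.75) and of the lymphocyte genes 1 of 10 (0.14). Lower in females were 3 of 10 macrophage genes (-0.73) and 1 of 12 adipocyte genes (-0.087). Of the skeletal muscle (-1.64), endothelial (-0.33) and blood (0.26) genes 0 were called. The summed adrenal reads were 26.2 to 331 in males and 73.5 to 32566 in females, and those of the macrophage list 9661 to 52842 and 7097 to 37704. Their part in the sex differences of Angptl4, Cd36 and the pathway genes named below was not tested beyond the library exclusions given.

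The 10 genes did not vary as 1 block across the 24 libraries. Pearson's r between log2 levels was 0.82 for Slc27a1 and Acsl1, 0.86 for Acsl1 and Dgat1 and 0.77 for Slc27a1 and Dgat1, and after removal of the group means it was 0.49, 0.79 and 0.51. Dgat2 varied with Agpat2 (0.65, and 0.89 within groups). With Dgat1 its r was -0.01 over the 24 libraries but 0.52 within groups. Angptl4 varied with Gpihbp1 (0.58, and 0.81 within groups), and Lpl with Cd36 (0.70, and 0.78 within groups). These values describe 24 libraries that share tissue makeup and scaling.

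Over all 18389 other genes tested, the genes whose log2 level was most like the mean of the 10 were Bckdhb (Pearson's r 0.906, Spearman's rho 0.844), a subunit of the branched-chain ketoacid dehydrogenase, Pex11a (0.902 and 0.824) and Pex19 (0.894 and 0.901), peroxisome biogenesis genes, Slc13a4 (0.888 and 0.793) and Hsd17b12 (0.888 and 0.845), a fatty acid elongation enzyme. Genes with a level much like that of Angptl4 included Pxdc1 (0.911 and 0.921) and Hilpda (0.879 and 0.827), a lipid droplet protein that inhibits triglyceride lipase. Each is a description over 24 libraries.

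Further genes of the same pathway were taken from a list of 44, of which 41 could be tested over the 24 libraries. Under the HF diet 3 rose and 4 fell, 7 of 41 where 9.44% of all genes were called, and their median log2 fold change was -0.022. Lpin1, the phosphatidate phosphatase that provides diacylglycerol to the Dgat enzymes, fell by 1.33 (SE 0.14, adjusted p = 6.00e-06, limma), from 3687 to 15609 reads under LF to 1990 to 6587 under HF. Pck1, which supplies glycerol phosphate in fasted adipose tissue, fell by 1.02 (SE 0.18), and Fitm2, a lipid droplet formation protein, fell by 0.65 (SE 0.08). Gpat3, a glycerol phosphate acyltransferase, fell by 0.60 (SE 0.13). It is named beyond the rule for named genes, and its call was lost under many alternatives, by a fold just short of the limit in most. The genes that rose were Cav1 by 0.87 (SE 0.14) and Cavin1 by 0.63 (SE 0.10), which form caveolae, and Slc27a3 by 0.76 (SE 0.12), a family member of Slc27a1 with only 61.5 to 278 reads. The call of Pck1 was lost without the 6 libraries named renal (-0.94), that of Fitm2 with the adipocyte score (-0.57) and that of Cavin1 without VDD LF male 2310 (0.58).

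In the pairwise diet comparisons 0 of the 38 to 40 pathway genes tested were called (limma). The number at an unadjusted p under 0.05 was 13 of 38 in CTRL males, 12 of 40 in VDD males, 16 of 40 in CTRL females and 3 of 38 in VDD females. Of all genes tested 18.8%, 25.9%, 28.8% and 5.05% stood there. The smallest p was that of Lpin1 in CTRL males (-1.27, SE 0.21, adjusted p = 0.0261, limma) and VDD males (-1.58, SE 0.20, adjusted p = 0.0183, limma), of Fitm2 in CTRL females (-0.81, SE 0.11, adjusted p = 0.0206, limma) and of Acsl5 in VDD females (0.68, SE 0.19, adjusted p = 0.837, limma). Lpin1 was read 10434 to 15609 times in VDD LF males and 4211 to 4747 times in VDD HF males.

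By sex, 3 pathway genes were higher and 1 lower in females, 4 of 41 where 7.27% of all genes were called. Aqp7, the glycerol channel of adipocytes, was lower by -0.95 (SE 0.13, adjusted p = 5.58e-05, limma), with 2028 to 6473 reads in males and 1408 to 3321 in females. Slc27a6 was higher by 1.66 (SE 0.35) at 0 to 71.3 reads, Angptl8, an insulin-induced regulator of lipoprotein lipase, by 1.45 (SE 0.32) and Gpam, the mitochondrial glycerol phosphate acyltransferase, by 0.62 (SE 0.12). The calls of these 3 were lost without the 8 libraries rich in skeletal muscle reads (1.48, 1.39 and 0.47) and without the 4 rich in kidney or adrenal reads (1.16, 1.44 and 0.59). In the interaction terms 0 of the 41 were called (limma), and 3 to 7 per term stood at an unadjusted p under 0.05, where 4.10% to 8.92% of all genes did. The smallest p was that of Gpat3 for the diet by sex term (0.76, SE 0.25, adjusted p = 0.385, limma), Slc27a4 for the maternal diet by sex term (0.43, SE 0.16, adjusted p = 0.730, limma), Cavin1 for the maternal by offspring diet term of males (0.75, SE 0.29, adjusted p = 1.00, limma) and Acsl5 for that of females (0.75, SE 0.27, adjusted p = 0.664, limma).

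By maternal diet 0 pathway genes were called over the 24 libraries (limma), with 9 of 41 at an unadjusted p under 0.05 where 22.9% of all genes were, and 0 in each pairwise comparison. Fabp3, the fatty acid carrier of muscle that brown adipocytes also make, had the smallest p, with a difference of 3.24 (SE 0.58, adjusted p = 0.0104, limma), and ran from 1.82 to 346 reads in CTRL and from 103 to 2197 in VDD offspring. In HF males it was read 12.7 to 40.3 times in CTRL and 422 to 1134 times in VDD mice, and in HF females 20.1 to 144 times and 290 to 1813 times. Of the 8 libraries rich in skeletal muscle reads 6 were of VDD mothers, and the brown adipocyte sums of HF mice were 1798 to 4167 in VDD against 1099 to 2100 in CTRL males and 4057 to 41518 against 1034 to 1639 in females. Without those 8 libraries the Fabp3 difference was 2.97 (SE 0.62, adjusted p = 0.0923, limma), and with the muscle score in the fit 2.75 (SE 0.52, adjusted p = 0.0272, limma). With the brown adipocyte score it was 2.95 (SE 0.81, adjusted p = 0.161, limma), and without VDD HF females 2083 and 2121 it was 2.86 (SE 0.65, adjusted p = 0.0413, limma). The part of muscle and brown adipocytes in the Fabp3 difference was not tested beyond these fits. Fabp3 was called with a pseudocount of 10 (2.85, SE 0.48, adjusted p = 0.00916, limma) and with the adipocyte score (3.28, SE 0.56, adjusted p = 0.00623, limma). Leaving aside single libraries, its adjusted p ran from 0.00623 to 0.161 (limma). In LF females Slc27a6 had the smallest p (-1.51, SE 0.36, adjusted p = 0.391, limma) and in LF males Cav1 (-0.66, SE 0.27, adjusted p = 0.719, limma).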

How the data were processed

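Poly(A) RNA libraries of retroperitoneal fat from 24 mice were used, grouped by the labels. Per the labels and the submitters' processing notes, the authors aligned reads to mm10 with STAR 2.7.0d and counted them with featureCounts 1.6.1 (SAMtools 1.9 and Cufflinks 2.2.1 are also named). The authors deposited 8 tables, 1 per pairwise comparison of 6 libraries, holding log2 values of normalized reads plus 1. Their own fold changes and p-values were not used. Columns were mapped to groups by the maternal diet, offspring diet and sex in their names, and 0 per-sample columns were left unmapped. Of 56899 entries, 4 were dropped, since their names are dates that occur more than once.

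Values were turned back into reads, which came out whole (within 0.02) for 100.0% of values. Because the deposited unit is log2, limma (3.58.1, R 4.3.3) with an intensity trend was used in place of a negative binomial test, which was not run. Pairwise comparisons used 1 table each. The averaged contrasts and interaction terms used 8 group means over the 24 libraries, scaled by the median of ratios. Genes needed 10 normalized reads in 3 libraries. P-values were adjusted by Benjamini-Hochberg over all genes tested, and intervals are 95%. The tests were tried on simulated reads in which 200 genes were changed by 2 on the log2 scale. The pairwise tests called 42.0% to 61.5% of them and the averaged diet contrast 87.5%, with 1 to 3 false calls each. A pairwise count of 0 called therefore does not show that no gene changed. The members changed by less than 2 in every comparison, and each gene was simulated on its own, without shared tissue makeup. The simulated shares and false calls thus do not give the recovery or error for the members. Tables were handled with Python 3.11.15, pandas 2.3.3 and numpy 2.4.6. Alternatives were limma-voom, a pseudocount of 10, no filter, trimmed mean of M-values, covariates for muscle, brown adipocyte and adipocyte scores, 1 fit per sex, and leaving out libraries.

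The members and lists were chosen with earlier results of these data known. Text names all 10 members, at most 6 called pathway genes per comparison by largest change, or the gene with the smallest p where none was called, and the genes most correlated with the members' mean (5) and with Angptl4 (3, of which 1 is not reported here). Overlapping genes may share reads, since the strand setting of counting is not given in the sources. Litters are not given either, so p-values measure the spread between these mice, which may be litter mates.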

Additional observations from a re-analysis of the deposited data

How the results depend on the processing

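Over the alternatives, 2158 of 2253 log2 fold changes kept their direction and their side of the threshold, 43 lost a call, 18 gained one and 34 turned sign, and 325 of 333 counts of members called were equal to the count reported, while 8 differed. In 4 of these 8 the members called by diet were 2 in place of 3, Dgat1 having lost its call. The library exclusions other than single libraries were chosen after seeing the data, and the cause of each change below was not tested. No paired analysis was possible because the tables' columns carry mouse numbers, not the replicate numbers of the labels.

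Signs turned for small differences. For HF minus LF, Lpl was 0.068 without the 4 kidney or adrenal rich libraries, and Agpat2 was 0.13 with the brown adipocyte score and 0.038 with the adipocyte score. For VDD minus CTRL, Gpihbp1 was -0.018 without the renal libraries. With the brown adipocyte score Acsl1 was -0.021, Dgat2 -0.28 and Agpat2 -0.086. Without the kidney or adrenal rich libraries Dgat2 was -0.31 and Agpat2 -0.11, and without VDD HF females 2083 and 2121 Dgat2 was -0.035. For female minus male, Slc27a1 was 0.018 with the adipocyte score and 0.12 without those 2 females, and Acsl1 was -0.15 with the brown adipocyte score and -0.11 without the 8 muscle rich libraries. For the diet by sex term, Slc27a1 was 0.24 without the 2 females and Dgat2 0.12 without the kidney or adrenal rich libraries. For the maternal by offspring diet term without the muscle rich libraries, Acsl1 of males was -0.10 and Dgat2 of females 0.026.

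Leaving out 1 library gave ranges across 0 for Slc27a1 (-0.14 to 0.068) and Acsl1 (-0.073 to 0.097) by sex, for Dgat2 by diet in CTRL females (-0.14 to 1.03), for Dgat1 (-0.48 to 0.067) and Dgat2 (-0.15 to 0.83) by diet in VDD females, for Slc27a1 in the diet by sex term (-0.28 to 0.14) and for Dgat2 in the maternal by offspring diet term of females (-0.77 to 0.41).

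Counts of all genes called moved more. By diet in CTRL females (0 called) there were 13 without the filter and 0 to 1 without 1 library. In CTRL males (9) there were 15 with a pseudocount of 10, 39 without the filter, 14 with trimmed means and 0 to 11 without 1 library. In VDD males (12) there were 0 with limma-voom, 47 with a pseudocount of 10, 37 without the filter, 2 with trimmed means, 614 in 1 fit of 12 libraries and 0 to 251 without 1 library, and members called were 1 in that fit and 0 to 2 without 1 library. VDD against CTRL in HF males gave 0 to 148 without 1 library. Over the 24 libraries the diet gave 834 with the brown adipocyte score, 805 without the renal and 1041 without the kidney or adrenal rich libraries, in place of 1736. Maternal diet (19) gave 0 with the muscle or brown adipocyte score, 90 with the adipocyte score, 2 without the 2 females, 0 without each of the other 3 sets and 0 to 195 without 1 library. Sex (1338) gave 655 with the brown adipocyte score, 633 without the muscle rich, 370 without the renal and 598 without the kidney or adrenal rich libraries and 860 without the 2 females, with 0 to 2 members called without 1 library. The diet by sex term (5) gave 0 with limma-voom, 3 without the filter, 2 with the brown adipocyte and 3 with the adipocyte score, 1 without the 2 females, 0 without each of the other 3 sets and 1 to 7 without 1 library. The maternal diet by sex term (0) gave 2 without the kidney or adrenal rich libraries. The maternal by offspring diet term (0) gave 1 with a pseudocount of 10 and 2 without the muscle rich libraries in males, and 3 without the filter in females.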
